A study of Mus musculus with 10 samples.

Results

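Levels of 10 imprinted genes that lie outside the Dlk1-Meg3 cluster are described here, out of 18193 genes measured. They were taken by symbol from the annotation of the arrays: Igf2, Igf2r, Grb10, Phlda2, Plagl1, Peg3, Mest, Nnat, Snrpn and Peg10. All 10 were measured, through 20 probe sets that carry the symbol of 1 of them alone. A further 6 probe sets are annotated to both Snurf and Snrpn, and 1 to both Airn and Igf2r. Imprinted genes are transcribed mainly from the copy inherited from 1 parent, under the control of DNA methylation marks set in the egg or sperm. The marks at their control regions survive the wave of demethylation in the early embryo, and the zinc finger protein ZFP57 and its partner TRIM28 guard them in embryonic stem cells. Many of these genes tune fetal and placental growth, and several are also strongly expressed in neural progenitors.

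The series holds 10 expression arrays of mouse cells, and the question it poses is whether Oct4 alone can make adult neural stem cells (NSC) pluripotent. Per the labels, 3 arrays hold NSC differentiated from induced pluripotent stem (iPS) cells, 3 hold those iPS cells, and 4 hold NSC from adult mouse brain. All cells trace to OG2 Rosa26 neo/lacZ mice, which carry a fluorescent reporter of Oct4 (Oct4-eGFP) and a ubiquitous lacZ marker, crossed with ICR females. The iPS cells were made with a pMX retroviral vector bearing mouse Oct4 cDNA and picked as fluorescent colonies, and they grew with leukaemia inhibitory factor on irradiated embryonic fibroblasts (MEF). The iPS-derived NSC therefore also went through the Oct4 vector, while the brain NSC did not receive it. The labels do not say how many clones or animals stand behind a group, so the p-values measure the spread between these samples, which may be technical. The values are not split by parental copy, so they say nothing of which allele was read.

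The marker genes contradict 2 of the 3 group names. Pou5f1, the gene of Oct4, averaged 13.29 ± 0.25 (SD, n = 3) in the arrays labelled iPS cell-derived NSC, 4.66 ± 0.15 (n = 3) in the iPS-labelled ones and 4.55 ± 0.05 (n = 4) in brain NSC. Zfp42, an embryonic stem cell gene, ran the same way, and Fabp7, a gene of radial glia, ran the opposite way with 4.43, 14.17 and 14.45. Over 10 pluripotency markers the mean level was 11.11 to 11.25 in the arrays labelled iPS cell-derived NSC, 4.88 to 4.95 in the iPS-labelled ones and 4.89 to 4.95 in brain NSC. Over 10 neural stem cell markers it was 6.23 to 6.24, 11.32 to 11.41 and 11.16 to 11.46. The group names are kept as deposited and written with the word labelled, so each direction given for these 2 groups rests on names at odds with their markers. Levels are log2 values as deposited, after RMA. Differences are in log2 units with the standard error (SE) of limma, a linear model with moderated errors fitted across all genes, and a gene is called at a Benjamini-Hochberg adjusted p under 0.05 and a difference of at least 2-fold.

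Against the iPS-labelled arrays, 6 of the 10 genes were called in the arrays labelled iPS cell-derived NSC: Phlda2, Plagl1, Grb10 and Snrpn rose, and Mest and Nnat fell. Of all genes measured, 25.3% were called in that comparison. Against brain NSC, the same 4 genes rose in the arrays labelled iPS cell-derived NSC, and Mest, Nnat and Peg3 fell, 7 of 10 where 25.4% of all genes were called. Between the iPS-labelled arrays and brain NSC, 1 of the 10 was called, Plagl1, which fell in the iPS-labelled arrays, where 1.84% of all genes were called, 0.951% higher and 0.890% lower. That share stands for 335 genes, and without brain NSC replicate 4 the count was 539. These 3 comparisons share arrays with each other, so they are not independent. Igf2, Igf2r and Peg10 were called in none of the 3. The median difference of the 10 genes was 0.27, 0.70 and 0.11 in the 3 comparisons in this order, beside 0.12, 0.13 and 0.01 over all genes. Arrays of the 2 groups did not overlap for 8, 8 and 5 of the 10, where 69.5%, 61.3% and 28.3% of all genes did not overlap.

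**Figure D1:**
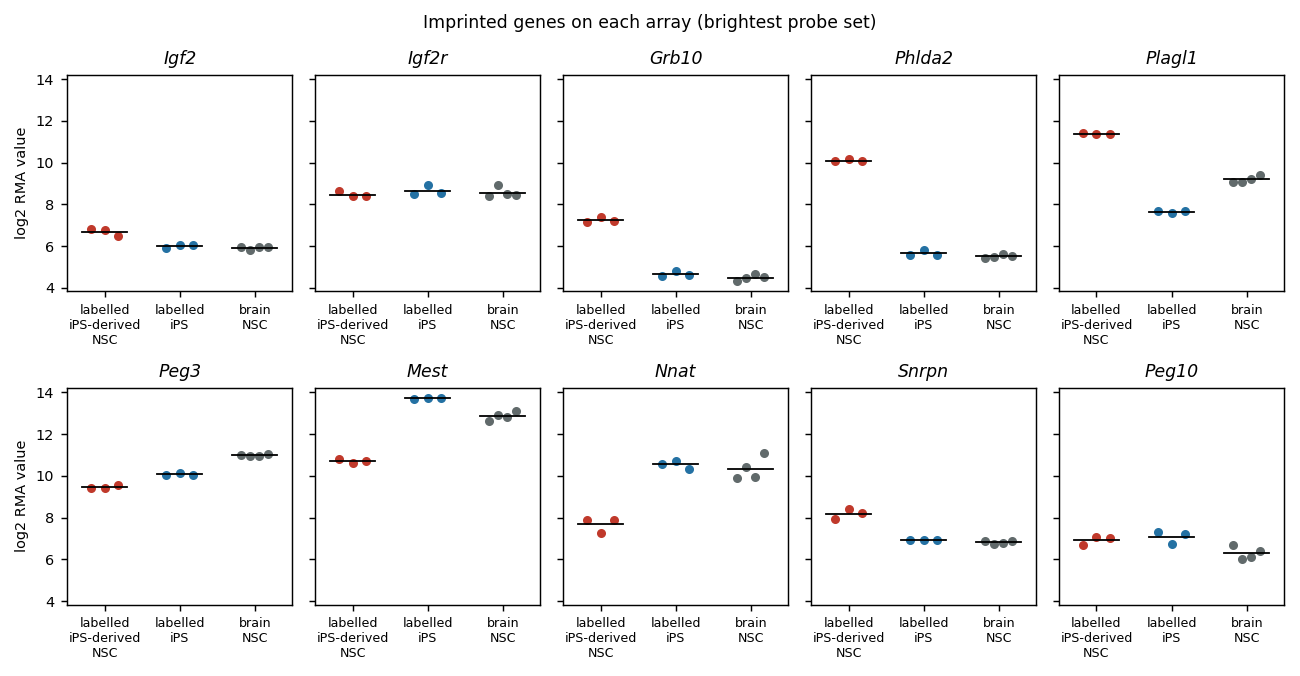
Deposited log2 RMA value (vertical axis) of the brightest probe set annotated to the gene alone, for each of the 10 imprinted genes on every array (points), with the group mean as a line, for the 3 arrays labelled iPS cell-derived NSC, the 3 labelled iPS and the 4 of brain NSC. Phlda2, Plagl1, Grb10 and Snrpn stand highest in the arrays labelled iPS cell-derived NSC, Mest and Nnat stand lowest there, and Igf2r overlaps across all groups.

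Insulin-like growth factor 2, the product of Igf2, is a secreted fetal growth factor read from the paternal copy. Its brightest probe set stood at 6.80, 6.78 and 6.50 in the arrays labelled iPS cell-derived NSC, at 5.93, 6.04 and 6.07 in the iPS-labelled ones, and at 5.97, 5.84, 5.95 and 5.95 in brain NSC. The arrays labelled iPS cell-derived NSC lay above all others, while the other 2 groups overlapped. The difference was 0.68 ± 0.10 from the iPS-labelled arrays (adjusted p = 4.70e-05) and 0.77 ± 0.09 from brain NSC (7.41e-06), under 2-fold in each case, and between the iPS-labelled arrays and brain NSC it was 0.08 ± 0.09 (0.602). The other Igf2 probe set averaged 3.71, 3.61 and 3.55 in the arrays labelled iPS cell-derived NSC, labelled iPS and brain NSC, below the lower quartile of every array (4.22 to 4.41). Igf2r encodes the receptor that binds IGF2 and carries it to lysosomes, and in the mouse it is read from the maternal copy. It averaged 8.47 ± 0.13 (SD, n = 3), 8.65 ± 0.23 (n = 3) and 8.56 ± 0.26 (n = 4) in the same order, and all 3 groups overlapped. Its differences were -0.17 ± 0.15, -0.09 ± 0.14 and 0.09 ± 0.14 for labelled iPS cell-derived NSC minus labelled iPS, labelled iPS cell-derived NSC minus brain NSC, and labelled iPS minus brain NSC. These do not exceed the spread between arrays, which does not show that the levels are equal.

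Grb10, an adaptor protein that restrains insulin and IGF signalling and is read from the maternal copy in most tissues and from the paternal copy in neurons, was among the genes that rose. It stood at 7.16, 7.42 and 7.22 in the arrays labelled iPS cell-derived NSC, at 4.59, 4.82 and 4.63 in the iPS-labelled ones, and at 4.31, 4.46, 4.64 and 4.55 in brain NSC. The arrays labelled iPS cell-derived NSC lay apart from the others, which overlapped and sat close above the lower quartile of the arrays. The difference was 2.59 ± 0.11 (6.00-fold, adjusted p = 1.66e-10) from the iPS-labelled arrays and 2.78 ± 0.11 (6.85-fold, 3.38e-11) from brain NSC, and 0.19 ± 0.11 (0.246) between those 2 groups. Its other probe sets moved far less: 1425457_a_at differed by 0.52 ± 0.12 and 0.68 ± 0.11 in these first 2 comparisons, and 1430164_a_at by 0.28 ± 0.14 and 0.36 ± 0.13, all short of 2-fold in a fit over all 45037 probe sets. With the mean of the 3 probe sets the gene was still called, at 1.13 and 1.27.

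Phlda2, a small protein with a pleckstrin homology domain that limits growth of the placenta and is read from the maternal copy, showed the largest difference of the 10. It measured 10.06, 10.15 and 10.07 in the arrays labelled iPS cell-derived NSC, against 5.57, 5.83 and 5.56 in the iPS-labelled ones and 5.45, 5.50, 5.63 and 5.53 in brain NSC. The 3 high arrays lay within 0.1 of each other, and the other groups overlapped. Its rise was 4.44 ± 0.10 (21.7-fold, adjusted p = 1.83e-13) over the iPS-labelled arrays and 4.57 ± 0.09 (23.7-fold, 5.73e-14) over brain NSC, and the remaining difference was 0.12 ± 0.09 (0.406). It has 1 probe set on the array, so no second one can be set beside it.

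Plagl1 (Zac1), a zinc finger transcription factor read from the paternal copy and known to regulate other imprinted genes, gave a different level in each group. Its brightest probe set, 1426208_x_at, read 11.40, 11.37 and 11.37 in the arrays labelled iPS cell-derived NSC, 7.71, 7.59 and 7.69 in the iPS-labelled ones, and 9.08, 9.08, 9.23 and 9.40 in brain NSC. No array of any group overlapped another group. The rise was 3.72 ± 0.10 (13.2-fold, adjusted p = 1.31e-12) over the iPS-labelled arrays and 2.18 ± 0.10 (4.54-fold, 1.29e-10) over brain NSC. Against brain NSC it fell by 1.54 ± 0.10 (2.90-fold, adjusted p = 4.13e-07) in the iPS-labelled arrays.

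The 3 Plagl1 probe sets gave the same direction for the arrays labelled iPS cell-derived NSC but not for the fall. Probe set 1450533_a_at was higher there by 1.81 ± 0.20 than in the iPS-labelled arrays and by 1.39 ± 0.19 than in brain NSC, and 1438588_at by 0.57 ± 0.10 and 0.64 ± 0.09. Between the iPS-labelled arrays and brain NSC, 1450533_a_at differed by -0.43 ± 0.19 (adjusted p = 0.140) without overlap between the groups, and 1438588_at by 0.06 ± 0.09 (0.717) with overlap. Both were dim in these 2 groups, which limits what they can show of a fall. In the iPS-labelled arrays and brain NSC, 1450533_a_at averaged 4.47 and 4.90, and 1438588_at 4.90 and 4.83. The lower quartile of the arrays was 4.22 to 4.41. The call of the fall was lost with the mean of the 3 probe sets (-0.63) and with only the probe sets least open to cross-hybridisation (-0.43), and the brightest probe set is itself of the class marked _x_at, whose probes can bind other transcripts.

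**Figure D2:**
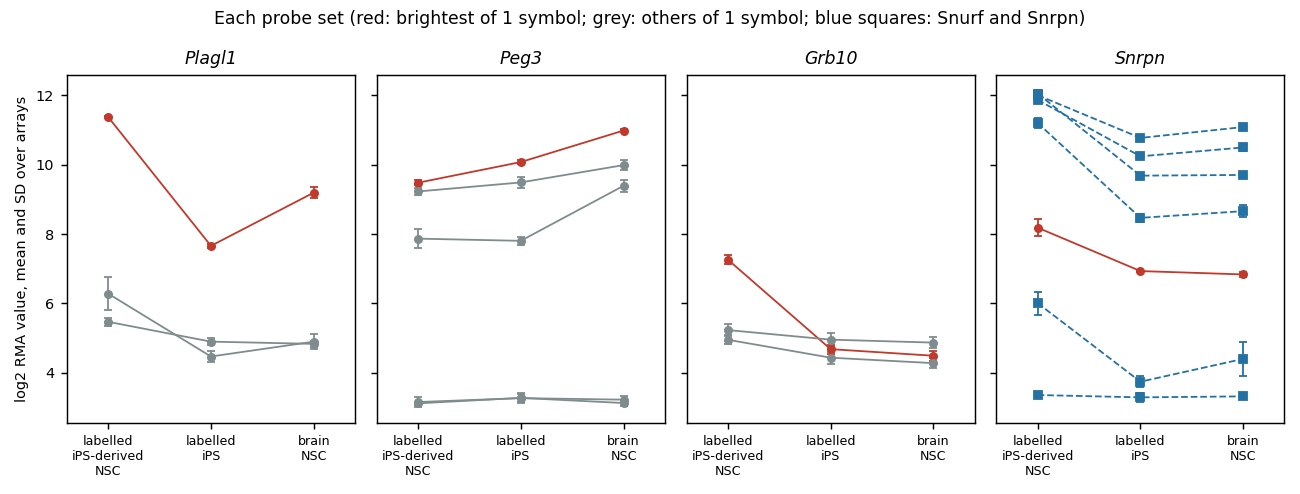
Mean log2 RMA value with SD over arrays (vertical axis) of every probe set of Plagl1, Peg3, Grb10 and Snrpn in the arrays labelled iPS cell-derived NSC (n = 3), labelled iPS (n = 3) and of brain NSC (n = 4). Red marks the brightest probe set of the gene alone, grey the others of that gene, and blue squares those annotated to both Snurf and Snrpn; 1 grey Plagl1 line differs by 0.06 between the labelled iPS and brain NSC groups, where the red line differs by -1.54.

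Peg3, a large zinc finger protein read from the paternal copy and involved in growth, stress responses and maternal behaviour, was lowest in the arrays labelled iPS cell-derived NSC and highest in brain NSC. Its brightest probe set read 9.44, 9.44 and 9.56 in the arrays labelled iPS cell-derived NSC, 10.05, 10.14 and 10.04 in the iPS-labelled ones, and 10.99, 10.95, 10.95 and 11.06 in brain NSC. The groups did not overlap. The arrays labelled iPS cell-derived NSC fell by 1.51 ± 0.08 against brain NSC (2.84-fold, adjusted p = 1.23e-09). Their difference from the iPS-labelled arrays was -0.60 ± 0.09 (4.01e-05), and the iPS-labelled arrays differed from brain NSC by -0.91 ± 0.08 (1.13e-05), both under 2-fold. Probe set 1417356_at gave means of 7.87 in the arrays labelled iPS cell-derived NSC, 7.81 in the iPS-labelled ones and 9.39 in brain NSC, and the iPS-labelled arrays fell by 1.59 ± 0.13 against brain NSC (adjusted p = 6.03e-06 over all probe sets, a difference of 3.01-fold, where 2.14% of all probe sets were called). On 1417355_at the differences from brain NSC were -0.76 ± 0.11 and -0.50 ± 0.11, and the last 2 probe sets lay between 3.01 and 3.41 on every array, below its lower quartile.

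Mest (Peg1), a membrane protein of the hydrolase fold read from the paternal copy and abundant in mesoderm and in embryonic brain, fell in both comparisons. It stood at 10.82, 10.60 and 10.73 in the arrays labelled iPS cell-derived NSC, against 13.69, 13.75 and 13.72 in the iPS-labelled ones and 12.63, 12.93, 12.81 and 13.09 in brain NSC. All groups lay apart. The difference was -3.00 ± 0.12 (8.02-fold, adjusted p = 4.22e-11) against the iPS-labelled arrays and -2.15 ± 0.11 (4.43-fold, 5.80e-10) against brain NSC. In the iPS-labelled arrays it lay 0.85 ± 0.11 above brain NSC (0.000162), which is under 2-fold. Nnat, a proteolipid of the endoplasmic reticulum expressed from the paternal copy in the developing brain, measured 7.90, 7.25 and 7.88 in the arrays labelled iPS cell-derived NSC, 10.57, 10.73 and 10.35 in the iPS-labelled ones, and 9.90, 10.43, 9.94 and 11.09 in brain NSC. The arrays labelled iPS cell-derived NSC lay below all others. Its difference was -2.87 ± 0.27 (7.33-fold, adjusted p = 4.71e-07) and -2.66 ± 0.25 (6.34-fold, 4.63e-07) against the same groups. The spread of Nnat in brain NSC, 0.55 (SD, n = 4), was the widest of the 10 genes in any group, and its difference between the iPS-labelled arrays and brain NSC was 0.21 ± 0.25 (0.628).

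Snrpn, which encodes a core protein of the spliceosome and shares a transcript with Snurf, is expressed from the paternal copy and has its control region in the domain lost in Prader-Willi syndrome in humans. The probe set of Snrpn alone read 7.93, 8.42 and 8.20 in the arrays labelled iPS cell-derived NSC, 6.96, 6.91 and 6.93 in the iPS-labelled ones, and 6.90, 6.73, 6.81 and 6.90 in brain NSC. The arrays labelled iPS cell-derived NSC lay above the rest, and the iPS-labelled arrays lay just above brain NSC. The rise was 1.25 ± 0.12 (2.38-fold, adjusted p = 4.63e-07) and 1.35 ± 0.11 (2.55-fold, 9.38e-08), with 0.10 ± 0.11 (0.601) between the iPS-labelled arrays and brain NSC. Of the 6 probe sets shared by Snurf and Snrpn, 5 were called higher in the arrays labelled iPS cell-derived NSC than in the iPS-labelled ones, by 1.23 to 2.74, and 4 than in brain NSC, by 1.37 to 2.55, where 20.5% and 20.6% of all probe sets were called. The sixth, 1460075_x_at, lay at 3.15 to 3.41 on all arrays. Of the other shared ones, the brightest, 1415895_at, averaged 12.01, 10.77 and 11.09 in the arrays labelled iPS cell-derived NSC, labelled iPS and brain NSC. The dimmest of them, 1441905_x_at, averaged 6.01, 3.74 and 4.40. The probe set of Snrpn alone was therefore not the brightest that reads this gene. Between the iPS-labelled arrays and brain NSC the 6 shared probe sets differed by -0.66 to -0.0203, opposite in sign to the probe set of Snrpn alone, and none of these differences was called.

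Peg10, a gene derived from a retrotransposon, read from the paternal copy and needed for the placenta, was not called anywhere. It read 6.68, 7.09 and 7.04 in the arrays labelled iPS cell-derived NSC, 7.30, 6.75 and 7.20 in the iPS-labelled ones, and 6.70, 6.04, 6.10 and 6.38 in brain NSC. The labelled groups overlapped each other, and only the iPS-labelled arrays lay clear of brain NSC. They were higher by 0.77 ± 0.17 (adjusted p = 0.00701), under 2-fold, and the arrays labelled iPS cell-derived NSC by 0.63 ± 0.17 (0.00593). Between the labelled groups the difference was -0.14 ± 0.19 (0.525).

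**Figure D3:**
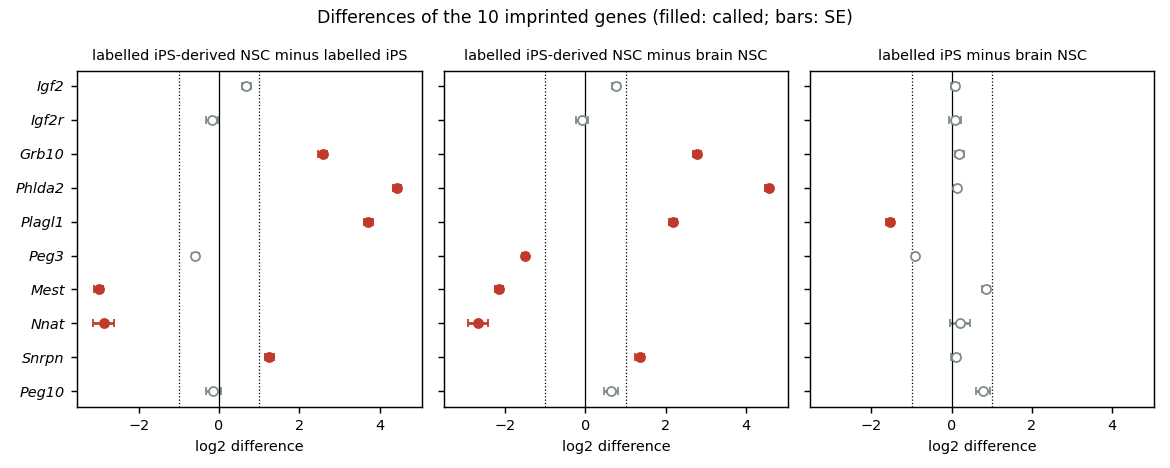
Log2 difference (horizontal axis) of each of the 10 imprinted genes in the 3 comparisons, with the SE of limma as bars; filled red points were called, open grey points were not, and the dotted lines mark 2-fold. The third panel, labelled iPS minus brain NSC, holds 1 filled point, Plagl1 at -1.54, while Phlda2 stands at 4.44 and 4.57 in the first 2 panels.

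By the parental copy from which they are mainly read, 2 of the 3 maternally expressed genes rose in the arrays labelled iPS cell-derived NSC against the iPS-labelled ones (Phlda2 and Grb10) and 0 fell. Grb10 was counted here as maternally expressed, although it is read from the paternal copy in neurons, and the allele read was not measured. Of the 7 paternally expressed genes, 2 rose (Plagl1 and Snrpn) and 2 fell (Mest and Nnat). Against brain NSC the counts were 2 of 3 higher for the maternally expressed genes, and 2 of 7 higher and 3 of 7 lower for the paternally expressed ones. Of all genes, 10.8% were called higher and 14.4% lower in the first comparison, and 11.3% and 14.0% in the second.

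Further imprinted genes outside the Dlk1-Meg3 cluster moved in both directions as well. Of 51 listed, 43 were measured, and 8 rose and 10 fell in the arrays labelled iPS cell-derived NSC against the iPS-labelled ones. The counts against brain NSC were again 8 and 10. Their median difference was 0.04 and 0.01, against 0.12 and 0.13 over all genes. The shares over all genes were 10.8% higher and 14.4% lower in the first comparison, and 11.3% and 14.0% in the second. Ddc, which encodes the decarboxylase that makes dopamine and serotonin and lies beside Grb10 on chromosome 11, rose by 6.22 ± 0.13 (adjusted p = 9.24e-14) and 6.23 ± 0.12 (4.00e-14). Zdbf2, a zinc finger gene of chromosome 1 that is read from the paternal copy, rose by 3.62 ± 0.12 and 3.58 ± 0.11. Sfmbt2, a polycomb-related gene of chromosome 2, rose by 2.60 ± 0.09 over brain NSC.

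Among those that fell, Nap1l5, an intronless nucleosome assembly gene, stood at 5.68 in the arrays labelled iPS cell-derived NSC, 10.67 in the iPS-labelled ones and 10.93 in brain NSC, differences of -4.99 ± 0.14 and -5.26 ± 0.13. Peg12, an intronless gene of the Prader-Willi region, fell by 3.11 ± 0.15 and 2.46 ± 0.14, and Gnas, the stimulatory G protein subunit, by 2.85 ± 0.19 against the iPS-labelled arrays. Pon2, a paraoxonase beside Peg10, fell by 2.61 ± 0.12 against the same arrays, and Sgce, epsilon-sarcoglycan, by 2.38 ± 0.11 against brain NSC. In the iPS-labelled arrays against brain NSC, where 1.84% of all genes were called, 0 of these 43 genes were called by limma. There, 9 had an adjusted p under 0.05 with a difference under 2-fold, and 17 had an unadjusted p under 0.05. The largest differences, named after their values were seen, were 0.93 ± 0.13 for Cdkn1c, a brake on the cell cycle, and -0.91 ± 0.12 for Ndn, necdin, a growth suppressor of neurons.

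**Figure D4:**
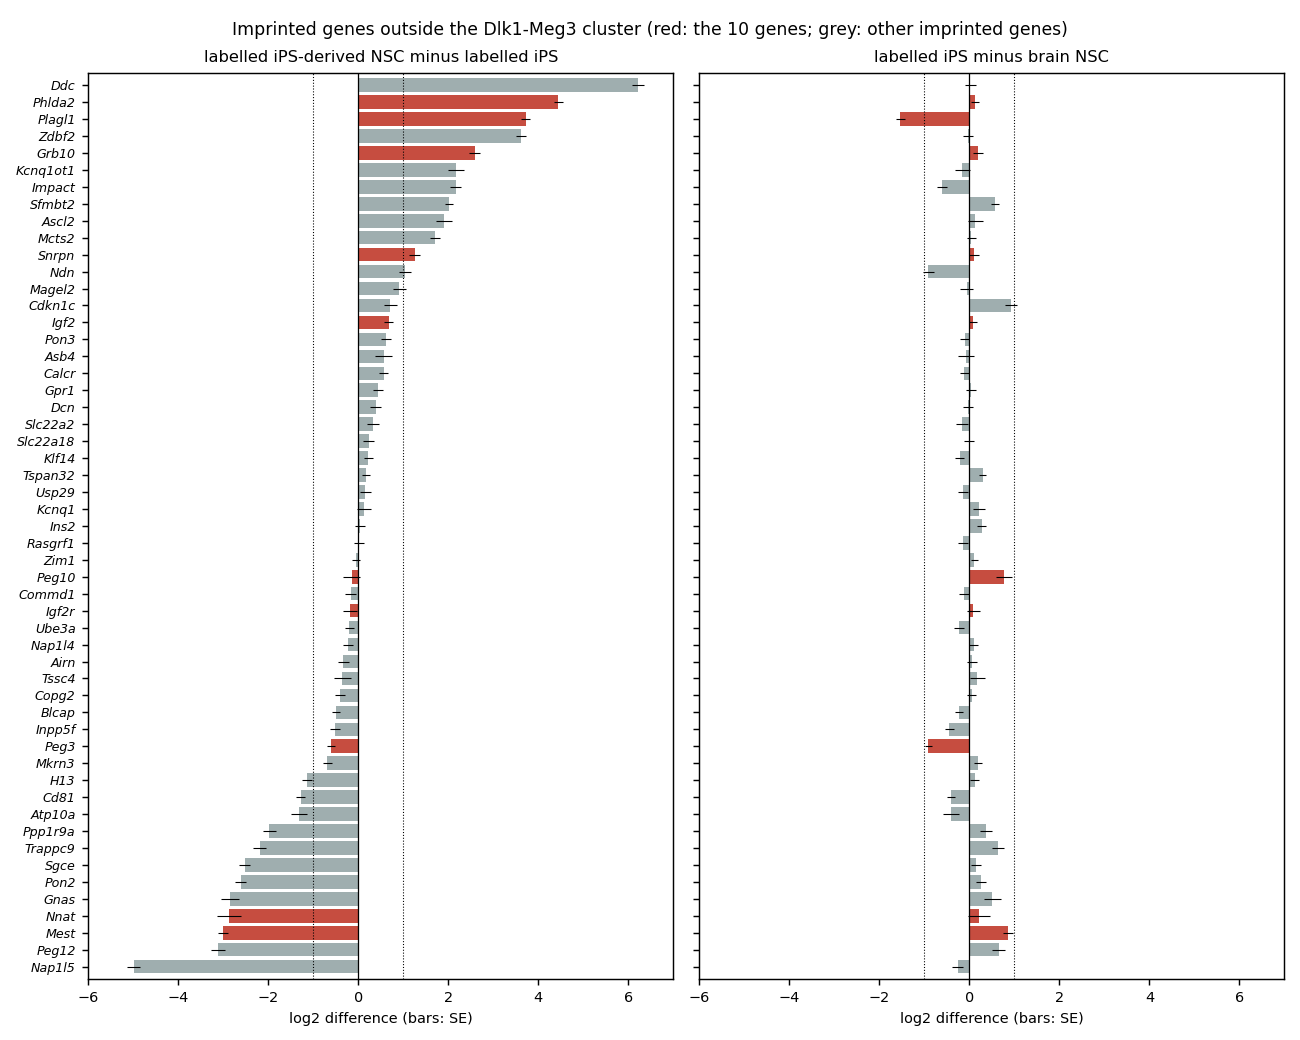
Log2 difference with SE (horizontal axis) of the 10 imprinted genes (red) and 43 other imprinted genes (grey), for the arrays labelled iPS cell-derived NSC minus the iPS-labelled ones on the left and for the iPS-labelled ones minus brain NSC on the right, both sorted by the left panel. The left panel spans 6.22 for Ddc to -4.99 for Nap1l5, while all grey bars on the right lie between -0.91 and 0.93.

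Imprinted genes come in clusters that share a control region, so the neighbours of the 10 genes were read beside them. Within 1 Mb in the RefSeq table of the mouse assembly GRCm38.p6, 9 of the 10 had at least 1 of 25 measured neighbours from the list, and Plagl1 had none. Grb10 and its neighbour Ddc both rose. Phlda2 and Igf2 share 10 neighbours on chromosome 7, of which Kcnq1ot1, a long noncoding RNA that silences part of that cluster in cis, rose by 2.18 ± 0.18 against the iPS-labelled arrays, Ascl2, a transcription factor of trophoblast, rose by 1.91 ± 0.18, and Cd81, a tetraspanin, fell by 1.28 ± 0.10. Cdkn1c stood at 8.27, 7.55 and 6.62 in the arrays labelled iPS cell-derived NSC, the iPS-labelled ones and brain NSC, a rise of 1.65 ± 0.13 in the first over the last. The other 6 neighbours were not called in any comparison. These Phlda2 neighbours were chosen after their values were seen.

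Around Peg10, Sgce, Ppp1r9a and Pon2 fell in the arrays labelled iPS cell-derived NSC, with differences of -2.52 ± 0.12, -1.98 ± 0.15 and -2.61 ± 0.12 from the iPS-labelled ones, although Peg10 itself was not called. The other 3 neighbours, Asb4, Calcr and Pon3, differed by 0.57 ± 0.19, 0.56 ± 0.11 and 0.61 ± 0.11, under 2-fold and in the other direction. All 3 were dim, averaging 4.01 to 4.31 in the arrays labelled iPS cell-derived NSC and 3.44 to 3.74 in the iPS-labelled ones. In brain NSC they averaged 3.56 to 3.81. The lower quartile of the arrays was 4.22 to 4.41, which limits what these 3 genes can show. The neighbours named in this paragraph were chosen after their values were seen. Sgce and Peg10 start from a shared promoter region, and their differences were -2.52 ± 0.12 and -0.14 ± 0.19 in this comparison. Copg2, which overlaps Mest, differed by -0.40 ± 0.11, and Blcap, whose intron holds Nnat, by -0.50 ± 0.09, both under 2-fold beside -3.00 for Mest and -2.87 for Nnat. Airn, the noncoding RNA that silences the paternal Igf2r, differed by -0.34 ± 0.12 and was not called. Zim1 and Usp29, next to Peg3, and Ube3a, in the Snrpn domain, were not called in any of the 3 comparisons. The group means of Zim1, 4.34 to 4.44, lay near the lower quartile.

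Genes that act with IGF2 were read beside Igf2 and Igf2r. Of 19 listed, 18 were measured, and in the arrays labelled iPS cell-derived NSC 2 rose and 10 fell against the iPS-labelled ones, with a median of -1.82, while 2 rose and 9 fell against brain NSC, with a median of -1.02. Of all genes, 10.8% rose and 14.4% fell in the first of these comparisons and 11.3% rose and 14.0% fell in the second, with medians of 0.12 and 0.13. Igfbp3, a secreted IGF binding protein, fell by 5.24 ± 0.16 (adjusted p = 4.58e-12) and 4.66 ± 0.15. Irs1, the main docking protein of the insulin and IGF1 receptors, fell by 4.63 ± 0.15 and 4.82 ± 0.14, and Igfbp5 by 4.21 ± 0.19 and 3.76 ± 0.17. The insulin receptor gene Insr fell by 3.28 ± 0.15 against the iPS-labelled arrays, and Pik3r1, a regulatory subunit of PI3 kinase, by 3.71 ± 0.10 against brain NSC. The 2 that rose were Igf2bp1 (2.48 ± 0.13 and 2.23 ± 0.12) and Igf2bp3 (1.07 ± 0.10 and 1.12 ± 0.10), RNA-binding proteins that bind Igf2 mRNA. Between the iPS-labelled arrays and brain NSC, where 1.84% of all genes were called, 1 of 18 was called. This was Irs2, a second docking protein, which rose by 1.95 ± 0.19 (adjusted p = 2.52e-05).

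Of 10 listed factors linked to the upkeep of imprints, 9 were measured. In the arrays labelled iPS cell-derived NSC 4 rose and 0 fell against each of the other groups. Over all genes, 10.8% rose and 14.4% fell against the iPS-labelled arrays, and 11.3% rose and 14.0% fell against brain NSC. Zfp57, which binds methylated control regions, stood at 8.47, 5.62 and 5.44 in the arrays labelled iPS cell-derived NSC, the iPS-labelled ones and brain NSC, rises of 2.84 ± 0.16 (adjusted p = 1.77e-09) and 3.03 ± 0.15 (3.85e-10). Trim28 rose by 1.43 ± 0.14 and 1.64 ± 0.13, and Dppa3, which shields methylation in the zygote, by 3.76 ± 0.13 and 3.76 ± 0.12. The fourth was Zfp42, also a marker in the check of the labels, at 8.90 ± 0.11 and 8.94 ± 0.10. The maintenance methyltransferase Dnmt1 and its partner Uhrf1 were not called, nor were Ctcf, Setdb1 and Zfp445. Between the iPS-labelled arrays and brain NSC, where 1.84% of all genes were called, 0 of the 9 were called. There, 3 of the 9 had an unadjusted p under 0.05 by limma.

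Start regions of the genes, 250 bases before to 50 bases after a RefSeq start (GRCm38.p6), were searched for TGCCGC, the core letters that ZFP57 binds when methylated, on both strands. Of 18 windows over 9 genes (Peg10 had no entry in the table), 7 windows of 6 genes held a match, beside 11.6% of 32851 windows of all genes. Some of these windows overlap or belong to alternative starts of 1 gene, so they are not independent. CpG pairs numbered more than 7, the median of all windows, in 12 of the 18. Shown are matching windows of 4 genes called in the comparison of the labelled groups, and the window of Phlda2, the gene with the largest difference, which has no match, to set their start sequences beside the differences. Capitals mark the match on either strand.
Phlda2, chr7:143502475-143502774, minus strand: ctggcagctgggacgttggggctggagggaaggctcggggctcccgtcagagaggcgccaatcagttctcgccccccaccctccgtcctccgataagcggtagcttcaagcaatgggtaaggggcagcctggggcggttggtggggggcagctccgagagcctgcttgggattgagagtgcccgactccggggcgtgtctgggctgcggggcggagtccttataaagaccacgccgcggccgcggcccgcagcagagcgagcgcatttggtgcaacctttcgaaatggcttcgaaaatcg
Plagl1, chr10:13090582-13090881, plus strand: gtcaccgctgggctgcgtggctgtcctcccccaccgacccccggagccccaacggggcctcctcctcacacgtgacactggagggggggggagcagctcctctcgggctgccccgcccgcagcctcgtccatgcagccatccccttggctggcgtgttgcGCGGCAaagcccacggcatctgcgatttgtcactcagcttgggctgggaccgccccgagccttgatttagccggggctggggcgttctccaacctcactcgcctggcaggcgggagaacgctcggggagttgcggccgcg
Grb10, chr11:12037371-12037670, minus strand: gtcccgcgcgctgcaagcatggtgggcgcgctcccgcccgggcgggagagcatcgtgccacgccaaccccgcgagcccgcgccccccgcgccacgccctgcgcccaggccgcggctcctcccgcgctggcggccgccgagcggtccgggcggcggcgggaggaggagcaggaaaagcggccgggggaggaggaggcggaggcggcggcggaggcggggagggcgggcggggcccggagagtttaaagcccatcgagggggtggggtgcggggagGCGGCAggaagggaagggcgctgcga
Mest, chr6:30737800-30738099, plus strand: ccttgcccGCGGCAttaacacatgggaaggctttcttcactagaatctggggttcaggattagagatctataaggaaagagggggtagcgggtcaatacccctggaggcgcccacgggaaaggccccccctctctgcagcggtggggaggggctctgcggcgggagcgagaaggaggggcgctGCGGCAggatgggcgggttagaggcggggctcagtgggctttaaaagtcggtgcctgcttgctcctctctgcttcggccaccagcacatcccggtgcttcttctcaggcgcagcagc
Nnat, chr2:157559828-157560127, plus strand: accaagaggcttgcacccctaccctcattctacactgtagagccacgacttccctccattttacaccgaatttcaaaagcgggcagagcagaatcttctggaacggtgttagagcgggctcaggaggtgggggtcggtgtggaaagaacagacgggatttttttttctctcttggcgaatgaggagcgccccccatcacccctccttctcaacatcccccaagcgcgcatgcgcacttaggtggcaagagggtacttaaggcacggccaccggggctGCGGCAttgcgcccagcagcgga
The match occurs in windows of genes that rose (Plagl1, Grb10) and of genes that fell (Mest, Nnat). A match is a description of these letters and not a bound site, and no match in Phlda2 says only that the letters are not in this window. The windows hold 26 CpG pairs for Phlda2 and for Plagl1, 45 for Grb10, and 17 each for Mest and Nnat.

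To place each pattern among all genes, the 2 genes closest to it over the 10 arrays were found by the root mean square difference of centred log2 values. For Phlda2 these were Khdc3, a gene of oocytes and embryonic stem cells (0.109), and Pir (0.114). Khdc3 averaged 10.44 in the arrays labelled iPS cell-derived NSC, 5.76 in the iPS-labelled ones and 5.77 in brain NSC. Septin8 (0.0851) and Cerk, ceramide kinase (0.0914), came closest to Mest, with 6.76, 9.63 and 8.93 for Septin8 in the same order of groups. For Plagl1, whose own standard deviation over the arrays was 1.53, Tgif1 (0.272) and Timp1 (0.282) were the nearest. Grb10 had Gimap9 (0.125) and Lrmp (0.137), Nnat had Map7d1 (0.188) and Atat1 (0.197), Peg3 had Slc25a30 (0.118) and Pde2a (0.130), and Snrpn had Rad17 (0.0983) and Birc3 (0.109). Igf2 lay nearest to Pomc (0.0607) and Fes (0.0613), Peg10 to Sfrp1 (0.199) and Srrd (0.200) and Igf2r to Ccdc7a (0.104) and Stn1 (0.113). None of these 20 genes is on the lists used here.

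Some markers of other cells also differed in the arrays labelled iPS cell-derived NSC. Of 16 markers of feeder fibroblasts, 7 rose and 1 fell there against the iPS-labelled arrays, and 9 rose and 1 fell against brain NSC. Their mean level was 6.29, 6.06 and 5.63 in the arrays labelled iPS cell-derived NSC, 4.97 to 5.07 in the iPS-labelled ones and 4.89 to 5.00 in brain NSC. The collagen gene Col1a2 rose by 2.83 ± 0.30 over the iPS-labelled arrays and Prrx1, a mesenchymal transcription factor, fell by 1.95 ± 0.17, whereas Lum, Dpt, Twist2 and Fap averaged 3.95 to 4.36 in the arrays labelled iPS cell-derived NSC, near or under the lower quartile there. The log2 of the summed level of all 16 ran from 10.38 to 11.23, 9.48 to 9.59 and 9.30 to 9.56 in the same order of groups, and the part of such cells in the results was not tested. Across the same 3 arrays, in which the fibroblast markers spanned 0.66, the 10 genes spanned 0.04 (Plagl1) to 0.64 (Nnat), with 0.09 for Phlda2, 0.12 for Peg3, 0.21 for Mest, 0.23 for Igf2r, 0.26 for Grb10, 0.30 for Igf2, 0.41 for Peg10 and 0.48 for Snrpn. Fewer cells of a type and less RNA per cell cannot be told apart in such bulk samples. Of 10 neuron markers 3 rose and 1 fell against the iPS-labelled arrays, of 8 endothelial and pericyte markers 3 rose, and of 8 astrocyte markers 4 fell. Of 7 oligodendrocyte markers and 8 microglia markers, 0 were called. Beside these marker counts, 10.8% of all genes rose and 14.4% fell against the iPS-labelled arrays, and 11.3% rose and 14.0% fell against brain NSC.

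The 3-prime minus 5-prime difference of the Actb control probe sets was 0.42 to 0.57 in the arrays labelled iPS cell-derived NSC, 0.50 to 0.67 in the iPS-labelled ones and 0.15 to 0.43 in brain NSC. For the Gapdh control probe sets it was -0.12 to 0.0059, -0.11 to -0.01 and -0.25 to -0.12 in the same order. The part of these shifts in the results was not tested. Correlations between arrays within a group ran from 0.990 to 0.998 over all genes, and no 2 arrays held the same values.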

How the data were processed

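RNA of 10 mouse cell samples was hybridised to Affymetrix expression arrays, 1 array a sample. The deposited values are log2 expression per probe set, which the authors computed by RMA (per the submitters' processing notes) using Bioconductor (per the labels); the version and settings are not given in the sources used here. Array medians ran from 5.65 to 5.72. Of 45101 probe sets, 64 are controls, 34945 carry 1 gene symbol, 932 several and 9160 none in the platform annotation; 34741 matched the RefSeq table of GRCm38.p6 by Entrez ID, which changed 0 symbols. Each of 18193 genes was represented by its probe set with the highest mean among those that carry 1 symbol. One linear model over the 3 groups was fitted with limma 3.58.1 in R 4.3.3 (7 residual and 5.95 prior degrees of freedom), with Benjamini-Hochberg adjustment over all genes. A gene was called at an adjusted p under 0.05 and at least 2-fold. Single probe sets were tested in a fit over 45037 probe sets, an alternative chosen after seeing the data. The fit was tested on simulated data. The number of arrays limits the precision.

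The members and gene lists were chosen with earlier results of these data known. Named are all 10 genes, the 6 called other imprinted genes with the largest differences and no overlap of arrays, the 4 largest called genes of the IGF and of the imprint upkeep lists per comparison, the 2 genes most alike each of the 10, and Pou5f1, Zfp42 and Fabp7; further names are marked where they occur or belong to the marker lists and neighbours. Alternatives were another normalization (quantile), probe set choice, a filter on dim genes, a smaller fold, another variance model, fits of 2 groups only, the replicate number as a block, and leaving out each array. Background correction was not varied, since scanner files were not used here.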

Additional observations from a re-analysis of the deposited data

Results flagged for a closer look

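In 2 of the 27 probe sets of the 10 genes, 1 of the 4 brain NSC arrays stood far from the other three, by a gap to its nearest neighbour over the whole range of the group. Chance alone flags about 1 in 20 such groups. The first was Igf2r probe set 1424112_at, which read 8.94 in brain NSC replicate 2, the highest of the group, with a ratio of 0.848. Peg3 probe set 1447732_x_at read 3.07 in brain NSC replicate 3, the lowest of the group, with a ratio of 0.933, and this probe set lies below the lower quartile on all arrays.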

How the results depend on the processing

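The calls of Phlda2, Mest, Nnat, Snrpn and Grb10 in the arrays labelled iPS cell-derived NSC held against both other groups in all alternatives that kept the gene, apart from single probe sets: 2 of Grb10, and of those shared by Snurf and Snrpn 1 against the iPS-labelled arrays and 2 against brain NSC, were not called. Plagl1 held likewise, except on 1438588_at. A filter on dim genes removed Grb10, and with the mean of its probe sets its rises were 1.13 and 1.27. The call of Plagl1 in the arrays labelled iPS against brain NSC was lost with the mean of probe sets (-0.63) and without probe sets that can cross-hybridise (-0.43, adjusted p 0.128), and that of Peg3 against brain NSC with the mean of probe sets (-0.77). Of the 10 genes, called between the arrays labelled iPS and brain NSC were 0 in each of those settings and 4 at 1.5-fold. Among other imprinted genes that count was 1, 1 and 5. Over all genes it was 223 with the mean of probe sets and 1541 at 1.5-fold, where the labelled iPS cell-derived NSC comparisons gave 7252 against the arrays labelled iPS and 7292 against brain NSC. Leaving out 1 array gave 6, 7 and 1 of the 10 each time, 4574 to 4638, 4581 to 4700 and 298 to 539 of all genes, and 17 to 19, 17 to 18 and 0 of the other imprinted genes. The count of 539 came without brain NSC replicate 4. With the replicate number as a block, the counts were 6, 7 and 1 of the 10 and 4599, 4658 and 537 of all genes. Same-numbered arrays deviated with correlations of -0.21 to 0.13 over 9 pairs, beside -0.37 to 0.32 over 24 others. These are deviations from the means of small groups, so they cannot decide whether the numbers pair the arrays, and the labels do not say. Uncalled differences turned sign for Igf2r with quantile normalization (0.0477 and 0.0958 against the arrays labelled iPS and brain NSC), without brain NSC replicate 2 (0.0388, in a range of -0.16 to 0.0388 over the arrays left out) and without iPS replicate 2 (-0.0441 between the arrays labelled iPS and brain NSC, in a range of -0.0441 to 0.21), and for Peg10 with quantile normalization (0.0654). Single probe sets turned sign as well. Igf2r gave -0.0518 (1424111_at) between the arrays labelled iPS and brain NSC. For the arrays labelled iPS cell-derived NSC, 1440979_at, annotated to both Airn and Igf2r, gave 0.0942 against those labelled iPS and 0.11 against brain NSC. Peg3 gave 0.0633 (1417356_at) between the labelled groups. Between the arrays labelled iPS and brain NSC it gave 0.0438 (1447732_x_at) and 0.15 (1447731_at). There Plagl1 gave 0.0643 (1438588_at), where the gene was called at -1.54. The 6 Snurf and Snrpn probe sets gave -0.31, -0.26, -0.0203, -0.19, -0.66 and -0.0288 between the arrays labelled iPS and brain NSC. The cause was not tested. Values near the lower quartile of an array limit what can be read from dim probe sets.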
